A study of Mus musculus with 30 samples.

Results

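Bone-marrow-derived macrophages (BMDM) are macrophages grown in culture from marrow progenitors, and lipopolysaccharide (LPS) is the endotoxin of Gram-negative bacteria. The response to LPS was examined here in wild-type C57BL/6 (B6) macrophages that had first been exposed to the oxysterol 25-hydroxycholesterol (25HC). The stimulated cells received 25HC at 5 uM for 18 h and then LPS at 10 ng/mL for 18 h, and the resting cells received 25HC alone and were taken at the start of stimulation, time 0. Each group held 1 library from each of mice 1, 2 and 3, so that the response rests on 3 libraries against 3, chosen by their labels from the 30 libraries of the series. Untreated B6 macrophages, and B6 macrophages pretreated for the same time with itraconazole at 1 uM or OSW-1 at 0.3 uM, were sampled at rest and after LPS in the same design, and they serve below only for comparison. Itraconazole is an antifungal triazole and OSW-1 a plant saponin, and both bind the oxysterol-binding protein OSBP. The Ch25h-/- macrophages of the series entered only the shared estimate of the spread.

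The labels name no vehicle for the untreated cells, give no age or sex of the mice, and do not say whether 25HC stayed in the medium during stimulation. Resting cells were taken at time 0, so 18 h of further culture goes with LPS, and the 2 cannot be told apart. In bulk RNA, fewer cells of a type and less RNA per cell cannot be told apart either. Unless another setting is named, the p-values below use the spread within groups over all 30 libraries of the series, not the compared ones alone. The labels tie the wild-type libraries to 3 mice.

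LPS is sensed by the complex of TLR4, MD-2 and CD14, which signals through MyD88 and TRIF to NF-kB, AP-1 and the interferon regulatory factors. The first wave of transcripts codes for cytokines and chemokines, and secreted type I interferon then drives the interferon-stimulated genes through its receptor and the JAK kinases. Macrophages make 25HC from cholesterol with the enzyme CH25H, and 25HC holds SREBP2 in the endoplasmic reticulum through INSIG, activates the nuclear receptor LXR and binds OSBP at contacts between the endoplasmic reticulum and the Golgi.

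The 6 libraries held 29015396 to 43922154 counts. In 20 of the 30 libraries of the series every count was even, among them 5 of these 6, and the labels do not say why. The resting 25HC library of mouse 3 stood apart with 46.13% odd counts. Values without it are given below for some results only, and other genes whose resting level in mouse 3 stood apart are given with it alone. The mitochondrial share of counts was 1.61% ± 0.137 (SD, n = 3) at rest and 1.00% ± 0.178 after LPS, and the 10 most abundant genes took 9.08 to 10.76% and 11.28 to 13.03%. The 12 macrophage markers summed to 20540 to 21310 CPM (counts scaled by library size and TMM factors) at rest and 18550 to 24050 CPM after LPS, with none at 0. The 10 neutrophil markers summed to 1.03 to 2.08 and 1.53 to 3.46 CPM, with 2 and 6 of them at 0 in all 3 libraries. The 8 dendritic cell markers summed to 2.01 to 2.23 CPM at rest and 8.59 to 14.4 CPM after LPS, where Ccr7 and Batf3 were the members that rose. The 7 T and NK cell markers in the table summed to 4.50 to 8.59 and 0.834 to 1.60 CPM, nearly all of it Cd4, and the 6 B cell markers to 4.37 to 5.51 and 0.521 to 2.06 CPM. The part of these levels in the results below was not tested.

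Of 13173 genes tested, 4031 (30.6%) were higher and 4388 (33.3%) lower after LPS in 25HC-pretreated macrophages, by edgeR's quasi-likelihood test at a Benjamini-Hochberg adjusted p under 0.05. Changes are log2 fold changes, and levels are CPM in mice 1, 2 and 3 in that order. The value after ± is a standard error derived as the absolute change over the square root of the test's F statistic. A test against a 2-fold change called 1058 genes (8.03%) higher and 1344 (10.2%) lower. In 9019 genes (68.47%) the 3 resting and the 3 stimulated values did not overlap. The median change of all genes was -0.037. Scaling by library totals in place of edgeR's TMM factors moved that median to -0.355 and the split to 2404 higher and 6572 lower, so lists with a median between -0.51 and 0.50 are given under both scalings. The LPS response of untreated cells was compared with this one by the difference of the 2 responses, with no library in common. That difference was higher with 25HC in 704 genes (5.34%) and lower in 916 (6.95%), and its median was -0.047.

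The most strongly induced transcripts coded for cytokines of the interleukin 1 and interleukin 6 families, neutrophil-attracting chemokines, prostaglandin and nitric oxide enzymes and acute-phase proteins. Il1b, which codes for the precursor of interleukin 1 beta, stood at 0.638, 0.225 and 0.382 CPM at rest and at 8362, 11973 and 8030.4 CPM after LPS, a rise of 14.43 ± 0.56 (adjusted p = 5.01e-17). All 3 stimulated libraries lay above the resting ones. Il1a, its cell-associated relative, rose from 0.589, 0.731 and 0.223 to 2088, 3782 and 1540.0 CPM, by 12.19 ± 0.77. Il6, which drives the hepatic acute-phase response, had reads in 1 of 3 resting libraries (0, 0.0562 and 0 CPM) and reached 129.5, 271 and 155 CPM, a ratio of 10310.0 (95% interval 1850.0 to 407300.0) that covers counting error only. Il12b, the p40 subunit of interleukins 12 and 23, was at 0, 0.0562 and 0 CPM and then at 80.2, 91.7 and 19.5 CPM, a ratio of 3574 (95% interval 641 to 141200.0). Mouse 2 was the highest of the 3 stimulated mice for each of these 4 genes. Syt7, a calcium sensor of exocytosis, had no reads at rest and 25.8, 30.2 and 17.5 CPM after LPS, at least 449-fold higher.

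Of 21 tested inflammatory cytokines 20 rose, with a median of 4.93, or 3.52 with members without resting reads set at their lower bounds, against a median of -0.037 over all genes. The other members of the list, Il19 and Il33, did not pass the filter on low counts. Tnf, the early cytokine of the list, rose from 43.2, 53.8 and 20.9 to 329, 419 and 236 CPM, by 3.06 ± 0.45 (adjusted p = 2.12e-06). Osm and Csf1, which code for oncostatin M and macrophage colony-stimulating factor, rose by 3.52 ± 0.32 and 2.95 ± 0.32. Inhba, a subunit of activin A, rose from 0.245, 0.562 and 0.318 to 90.5, 149 and 91.6 CPM, and Il27, a regulator of T cells, from 0.933, 0.562 and 0.509 to 27.6, 23.1 and 11.7 CPM. Il1rn, the antagonist of the interleukin 1 receptor, rose by 5.31 ± 0.37 to 3341, 2606 and 1701 CPM. Il10, an anti-inflammatory cytokine, was the member that did not pass, at 1.03, 1.46 and 1.46 CPM at rest and 1.78, 1.62 and 1.06 CPM after LPS, with overlapping groups (0.18 ± 0.33). Csf3, which drives the production of neutrophils, had no reads at rest and 1.08, 3.07 and 0.732 CPM after LPS, at least 31.3-fold higher over the group.

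Of the 21 cytokines 4 rose further with 25HC than without it, Il1b, Il1a, Osm and Csf1, where 5.34% of all genes were called higher. In untreated cells Il1b went from 2.13, 0.313 and 2.04 to 1586, 1096 and 2029 CPM, and the difference of the 2 responses was 4.39 ± 0.61 (adjusted p = 6.73e-05). The stimulated 25HC libraries lay above the stimulated untreated ones, and the resting groups overlapped. Il1a went from 0.378, 0.0521 and 0.991 to 160.4, 128 and 48.4 CPM in untreated cells, and the difference was 4.23 ± 1.11 (adjusted p = 0.0146), which was 3.23 (adjusted p = 0.186) without untreated resting mouse 3 and 3.73 (adjusted p = 0.315) by limma with a mouse correlation. The differences for Osm and Csf1 were 2.44 ± 0.43 and 1.77 ± 0.44. For Tnf it was 0.83 ± 0.61 and did not pass. Il6 reached 5.04, 5.7 and 0.973 CPM in stimulated untreated cells, below each stimulated 25HC library, and its fitted difference did not pass (adjusted p = 0.244).

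Chemokines rose at 18 of 23 tested members and fell at 3, with a median of 4.29. Ccl5, a T cell attractant, rose from 3.04, 2.92 and 1.72 to 5016, 3818 and 3891 CPM, by 10.68 ± 0.29. The neutrophil attractants Cxcl1, Cxcl2 and Cxcl3 rose by 7.87 ± 0.42, 5.08 ± 0.46 and 10.19 ± 0.62. Cxcl3 had 0.54, 0.337 and 0.0955 CPM at rest and 269, 543 and 389.5 CPM after LPS, and Cxcl1 had 0.245, 0.112 and 0.191 and 27.1, 60 and 45.7 CPM. The interferon-induced Cxcl9 and Cxcl10 rose by 7.50 ± 0.54 and 5.79 ± 0.55, and the macrophage and dendritic cell product Ccl22 by 6.03 ± 0.59. Ccl2, the attractant of monocytes, rose from 165, 188 and 35.4 to 2181, 2536 and 708 CPM. Its resting level in mouse 3 was the lowest of the 3, and without that library the rise was 3.36 against 3.80 with it. On the falling side were Ccl6 (309, 306 and 319 to 188, 224 and 156 CPM), Cxcl14 (12.7, 12.9 and 11.7 to 3.57, 3.33 and 3.26 CPM) and the membrane-bound Cx3cl1 (1.57, 2.02 and 1.15 to 0.701, 0.938 and 0.0666 CPM). For Ccl6 the adjusted p was 0.0757 without stimulated mouse 3, and for Cx3cl1 it was 0.0687 with only the compared groups in the fit.

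The difference from untreated cells was higher for Cxcl1, Pf4 and Cx3cl1 and lower for Ccl12 and Cxcl14. Cxcl1 went from 0.0473, 0.0521 and 0.372 to 1.6, 1.8 and 0.79 CPM in untreated cells, and its difference was 4.61 ± 1.11 (adjusted p = 0.00875), or 3.16 (adjusted p = 0.285) without untreated resting mouse 3 and 4.18 (adjusted p = 0.0644) by limma with a mouse correlation. Pf4, a chemokine stored in platelets and made by macrophages, differed by 1.24 ± 0.31 and Cx3cl1 by 3.10 ± 0.79, with an adjusted p of 0.0782 for Cx3cl1 without stimulated 25HC mouse 2, 0.0573 with only the compared groups in the fit and 0.0654 by limma (2.57). Cxcl14 differed by -1.83 ± 0.48. Ccl12, a monocyte attractant, rose in untreated cells (3.39) and did not pass here (0.77, with overlapping groups). Its difference of -2.62 ± 0.68 had an adjusted p of 0.0548 without resting 25HC mouse 2.

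**Figure D1:**
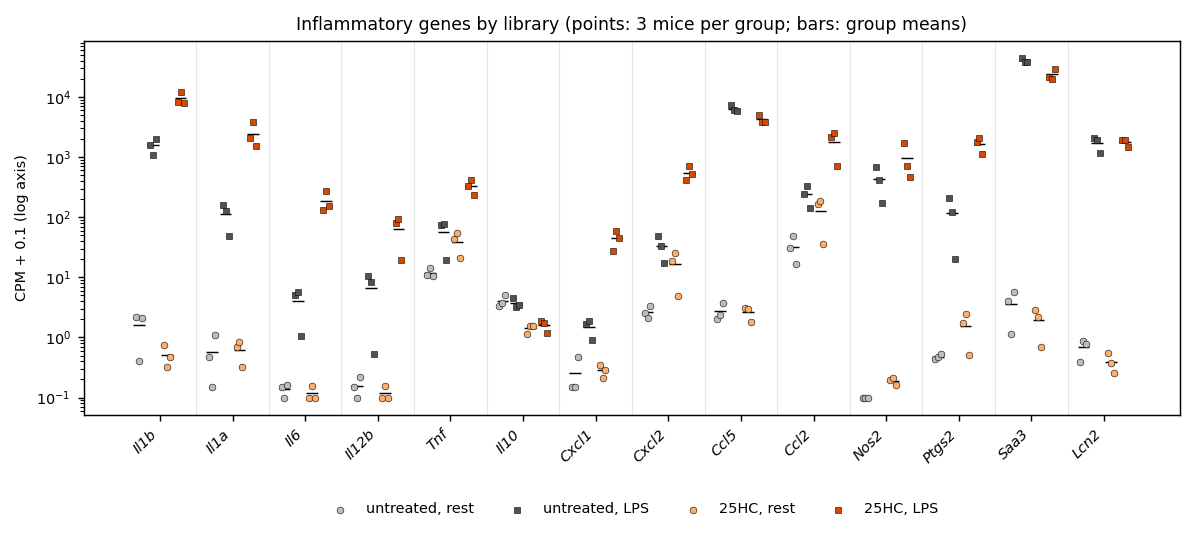
Levels (CPM plus 0.1, log axis) of 14 inflammatory genes in untreated macrophages at rest and after LPS (greys) and 25HC-pretreated macrophages at rest and after LPS (oranges). Points are the 3 mice and bars the group means. Il1b reached 8030.4 to 11973 CPM in stimulated 25HC cells and 1096 to 2029 CPM in stimulated untreated cells, while Il10 lay between 1.03 and 4.95 CPM in all 12 libraries.

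NF-kB is the textbook activator of many cytokine and chemokine genes, and the upstream windows of Il6 and Cxcl3 are shown. Each rose the furthest of the list members with a match in their only window, free of annotated exons. That choice, here and below, left out the genes of a single chromosome. A window is the 250 bases before the gene start in RefSeq on build GRCm38.p6, and capitals mark matches to the NF-kB consensus on either strand, which overlap each other in the second window. The Il6 window is chr5:30012864-30013113 on the plus strand, with a match ending 34 bases before the start, and the Cxcl3 window is chr5:90785851-90786100 on the plus strand, with the nearest match ending 62 bases before it. For Cxcl3 the bases after the start were not found near the beginning of a GENCODE vM21 transcript of the gene.
Il6: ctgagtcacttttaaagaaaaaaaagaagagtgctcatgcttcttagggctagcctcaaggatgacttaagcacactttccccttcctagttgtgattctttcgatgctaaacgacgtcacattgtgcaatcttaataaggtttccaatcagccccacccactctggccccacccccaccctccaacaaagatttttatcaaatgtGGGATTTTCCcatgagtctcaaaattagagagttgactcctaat
Cxcl3: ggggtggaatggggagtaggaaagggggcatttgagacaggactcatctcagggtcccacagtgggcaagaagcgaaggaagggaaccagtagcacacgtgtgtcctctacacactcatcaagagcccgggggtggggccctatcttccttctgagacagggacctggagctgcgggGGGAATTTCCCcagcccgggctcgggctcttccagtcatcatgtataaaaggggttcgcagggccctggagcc
A match stood in windows of 3 of 14 cytokine genes (21.4%) and 5 of 15 chemokine genes (33.3%). Among genes that restrain Toll-like receptor signalling it was 6 of 18 (33.3%), and 3.9% of all 32851 single windows held a match. Here and below a list gene counts once if any of its windows matches. The share over all windows counts each window alone, so the shares are unlike measures. A match is a description of the letters only.

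All 39 tested interferon-stimulated genes rose after LPS, with a median of 3.10, and all 39 did so under each scaling. Gbp5 was not tested. Rsad2, which codes for the antiviral enzyme viperin, rose from 72.2, 44 and 53.2 to 4364, 2720.1 and 1147 CPM, by 5.60 ± 0.56. Isg15, a ubiquitin-like modifier, rose from 17.7, 20.5 and 10.9 to 1122, 896 and 513 CPM, by 5.68 ± 0.39. The guanylate-binding GTPases Gbp2, Gbp3 and Gbp7 rose by 5.84 ± 0.31, 5.55 ± 0.36 and 4.76 ± 0.29. The RNA-binding Ifit1 and Ifit3, which block viral translation, rose by 5.14 ± 0.39 and 4.40 ± 0.35, and Oas2, which makes the activator of RNase L, by 1.67 ± 0.17. Irf7, which amplifies interferon transcription, rose to 2427, 1877 and 1334 CPM. Mouse 1 had the highest and mouse 3 the lowest stimulated level in nearly all genes of the list, and the heat map of 38 of the genes shows that order across the list.

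The rise of 24 of the 39 was larger with 25HC than without, where 5.34% of all genes were called higher. The median difference was 1.07. Gbp7 went from 7.07, 6.02 and 6.59 to 236, 189 and 109.6 CPM with 25HC and from 29.9, 33.2 and 46.1 to 161, 189.6 and 129 CPM without, a difference of 2.63 ± 0.36 (adjusted p = 6.73e-05). The resting levels were lower with 25HC in each mouse, and the stimulated levels overlapped. Gbp3 differed by 2.27 ± 0.43 and Isg15 by 1.91 ± 0.46. Ifitm3, which blocks viral fusion, was the one member with a difference below 0 (-0.47 ± 0.18, adjusted p = 0.0904). The count of 24 was 13 without stimulated 25HC mouse 1 and 34 without stimulated 25HC mouse 3, 18 without resting 25HC mouse 3 and 31 with the mouse as a replicate block.

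**Figure D2:**
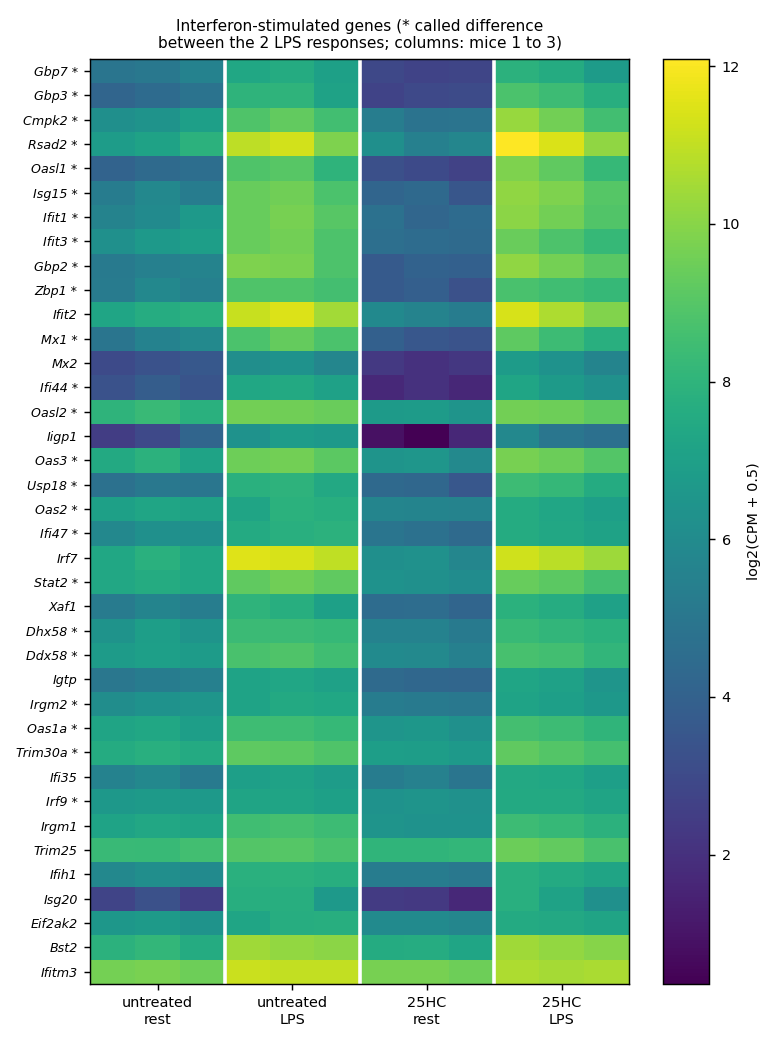
Heat map of log2(CPM + 0.5) of 38 of the 39 tested interferon-stimulated genes (rows) in untreated resting, untreated stimulated, 25HC resting and 25HC stimulated macrophages (columns, mice 1 to 3). An asterisk marks the 24 genes whose rise was larger with 25HC, and each row is higher in the stimulated than in the resting 25HC libraries.

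The interferon-stimulated response element was searched as its core GAAANNGAA on both strands. It stood in windows of 17 of 31 genes of this list (54.8%) and in 7.13% of all single windows. Isg15 and Rsad2 are shown with matches in capitals. They rose the furthest of the members that hold the element in their only window, free of annotated exons, on the chromosomes kept. The Isg15 window is chr4:156200819-156201068 on the minus strand, with 3 overlapping matches of which the nearest ends 57 bases before the start. The Rsad2 window is chr12:26456453-26456702 on the minus strand, with 1 match ending 110 bases before it.
Isg15: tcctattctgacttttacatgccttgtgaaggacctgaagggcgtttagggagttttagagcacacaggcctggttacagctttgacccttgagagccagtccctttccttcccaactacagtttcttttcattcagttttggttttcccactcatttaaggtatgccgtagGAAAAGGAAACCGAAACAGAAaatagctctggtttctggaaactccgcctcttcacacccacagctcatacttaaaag
Rsad2: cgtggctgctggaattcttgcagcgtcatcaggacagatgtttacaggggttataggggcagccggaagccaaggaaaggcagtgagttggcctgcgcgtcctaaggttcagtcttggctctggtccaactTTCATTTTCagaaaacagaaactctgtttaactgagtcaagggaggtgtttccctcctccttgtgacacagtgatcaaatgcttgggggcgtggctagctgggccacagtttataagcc

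Genes of the LPS receptor and its adaptors changed by small amounts, 13 of 21 higher and 3 lower, against 30.6% and 33.3% of all genes. Their median was 0.46, and 2 of them passed the test against a 2-fold rise. By library totals 10 rose and 8 fell, and without stimulated mouse 3 the falls numbered 6. Cd14, the co-receptor that hands LPS to TLR4, rose from 1148, 1178 and 867 to 4187, 5063 and 3478 CPM, by 2.00 ± 0.16, and its difference from untreated cells was 1.32 ± 0.22 (adjusted p = 0.000375). Tlr4, the receptor itself, fell from 170.0, 163 and 181 to 121, 140.0 and 133 CPM, by 0.38 ± 0.10. Myd88, its main adaptor, and the kinase gene Irak2 rose by 1.00 ± 0.08 and 1.93 ± 0.17, and Traf6, the ubiquitin ligase downstream of them, by 1.26 ± 0.17. Ikbkb, the kinase that releases NF-kB, rose by 0.98 ± 0.08, further than in untreated cells by 0.75 ± 0.12. Lbp, which carries LPS to CD14, fell from 0.442, 0.787 and 0.35 to 0.255, 0 and 0.133 CPM, where untreated cells rose from 0.378, 0.156 and 0.433 to 0.861, 1.2 and 1.46 CPM. Tab1, an activator of the kinase TAK1, fell by 0.21 ± 0.07, and its adjusted p was 0.117 without resting 25HC mouse 3 and 0.0719 with only the compared groups in the fit.

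Genes that restrain Toll-like receptor signalling rose at 18 of 21 and fell at 1, with a median of 2.83. Socs3, an inhibitor of cytokine receptors, rose from 2.01, 2.59 and 2.26 to 2270.2, 2008 and 1595 CPM, by 9.74 ± 0.32, and Socs1 from 0.491, 0.45 and 0.541 to 44.8, 44.3 and 45.6 CPM, by 6.50 ± 0.22. Tnfaip3, the ubiquitin editor A20, rose from 28.4, 37 and 26.4 to 526, 537 and 403 CPM, and Irak3, a kinase-dead member of the IRAK family, by 2.96 ± 0.12. Sigirr, an inhibitory member of the interleukin 1 receptor family, was the member that fell, from 6.53, 6.92 and 8.02 to 1.4, 1.09 and 1.06 CPM. With 25HC 7 members had a larger response than without it, where 5.34% of all genes did, among them Cish, an inhibitor of STAT5 signalling, by 3.28 ± 0.60 (adjusted p = 0.000963), Socs1 by 2.45 ± 0.30, Socs3 by 1.57 ± 0.35 and Zc3h12a, which codes for the RNase regnase-1, by 1.05 ± 0.20. Cish went from 0.54, 0.731 and 0.446 to 33.5, 34.9 and 16.1 CPM here and from 1.42, 0.99 and 1.86 to 11, 6.66 and 3.59 CPM in untreated cells. Tnip3, a partner of A20, rose less far (-1.80 ± 0.27). The count of 7 was 4 with only the compared groups in the fit.

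Of 25 NF-kB, AP-1 and early response factors 19 rose and 3 fell, with a median of 1.09. Nfkb2, the p100 precursor, rose by 2.60 ± 0.16, the C/EBP factor Cebpb by 3.42 ± 0.21, the AP-1 family member Batf by 4.64 ± 0.24 and Hif1a, the hypoxia factor, by 2.53 ± 0.13. The members that fell were the growth-promoting factor Myc, which fell from 39.5, 42.1 and 17.6 to 6.25, 6.2 and 5.52 CPM, and the early growth response genes Egr2 (-1.27 ± 0.44) and Egr3 (-2.10 ± 0.65). Without resting 25HC mouse 3 the value for Egr2 was -0.82 (adjusted p = 0.129), and without stimulated mouse 1 it was -1.13 (adjusted p = 0.0607). A higher response with 25HC than without it was called in 9 members, against 5.34% of all genes. They included the NF-kB subunits Rel (1.08 ± 0.21), Nfkb1 (0.73 ± 0.15), Rela (0.67 ± 0.16) and Nfkb2 (1.04 ± 0.22). Rel was at 13.8, 12.9 and 16.3 CPM at rest and 23.2, 27.5 and 19.8 CPM after LPS with 25HC, and at 19.7, 18.2 and 21.9 and 17, 16.7 and 12.9 CPM without. The orphan receptor gene Nr4a1 rose here (1.47 ± 0.35) with resting and stimulated values that overlapped, and its difference was 3.14 ± 0.54. The count of 9 was 5 without resting 25HC mouse 3, 5 without untreated stimulated mouse 2, and 5 with only the 4 groups compared in the fit.

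Enzymes that make prostaglandins, nitric oxide and itaconate rose at 12 of 16 tested members, with a median of 5.23, and 2 fell. Nos2, the inducible nitric oxide synthase, went from 0.0982, 0.112 and 0.0636 to 1699.9, 701 and 474 CPM, by 13.28 ± 0.87, and mouse 1 was the highest of the stimulated libraries. Ptgs2, the inducible cyclooxygenase, rose from 1.62, 2.36 and 0.414 to 1786, 2048 and 1133 CPM, by 10.11 ± 0.74. Ptges, the synthase of prostaglandin E2, rose by 8.42 ± 0.35, and Acod1, which makes itaconate from a citric acid cycle intermediate, by 8.25 ± 0.63 to 7318, 7374 and 5652 CPM. Acod1 had 29, 31.9 and 5.79 CPM at rest, with mouse 3 the lowest, and its rise was 7.80 without that library. Arg1 and Arg2, the arginases that compete with Nos2 for arginine, rose by 7.59 ± 0.85 and 7.08 ± 0.42, and the arginine transporter Slc7a2 rose from 2.31, 2.25 and 2.99 to 559, 800.4 and 564 CPM. The members that fell were the constitutive cyclooxygenase Ptgs1 (19.2, 19.8 and 21.7 to 0.701, 0.677 and 1.26 CPM) and Hpgd, which inactivates prostaglandins, with 11.9, 10.3 and 27.6 CPM at rest and 0.0637, 0 and 0.0666 CPM after LPS. Slc7a2 rose further than in untreated cells (2.41 ± 0.61), with an adjusted p of 0.0865 by limma with a mouse correlation, and Ptgs1 fell further (-1.58 ± 0.40), with an adjusted p of 0.0511 without stimulated 25HC mouse 2.

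Acute-phase and complement genes went both ways, 11 of 19 higher and 5 lower, against 30.6% and 33.3% of all genes, with a median of 1.87. Saa3, a serum amyloid A protein, rose from 2.8, 2.08 and 0.605 to 21810.0, 20027 and 29477 CPM, by 13.63 ± 0.71. Lcn2, which withholds iron from bacteria, rose from 0.442, 0.281 and 0.159 to 1949, 1944 and 1498 CPM, by 12.51 ± 0.41, and the haptoglobin gene Hp by 10.11 ± 0.56. Cfb, complement factor B, had 0.0491, 0.112 and 0 CPM at rest and 30.1, 35 and 35.7 CPM after LPS, a ratio of 605 (95% interval 207 to 2936). The 3 chains of the first complement component fell, C1qa by 1.33 ± 0.38, C1qb by 1.25 ± 0.26 and C1qc by 1.44 ± 0.30, as did the anaphylatoxin receptor C5ar1 (-2.53 ± 0.26).

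Transcripts of dividing cells were among those that fell the furthest. All 30 mitosis genes fell, with a median of -5.31, and 25 of 26 DNA replication genes fell, with a median of -3.20. Ccna2, cyclin A2, went from 156, 156 and 145 to 0.255, 0.313 and 0.399 CPM, a fall of 8.87 ± 0.22 (adjusted p = 1.47e-20). Top2a, the topoisomerase that untangles chromosomes, went from 357, 342 and 347 to 9.94, 9.28 and 8.79 CPM (-5.22 ± 0.11), and Plk1, a mitotic kinase, from 68.3, 65.3 and 60.5 to 0.446, 0.417 and 0.532 CPM (-7.12 ± 0.20). Within each group the mice lay close together. Pimreg, a mitotic regulator, and Ankle1, a DNA endonuclease, had no reads after LPS in any of the 3 mice and were at least 961-fold and at least 314-fold lower. Slco2b1, an organic anion transporter, was the one gene among the 12 strongest falls that is not known for cell division or DNA repair, at 28.7, 31.6 and 60.2 CPM at rest and with no reads after LPS (at least 646-fold lower). Ratios of the resting to the stimulated level were 5186 (95% interval 930.4 to 204900.0) for the replication clamp partner Pclaf, 1596 (95% interval 286 to 63050.0) for Shcbp1, 889 (95% interval 159 to 35160.0) for Troap and 702 (95% interval 240.0 to 3408) for the mitotic kinase Pbk. They were 688 (95% interval 235 to 3337) for the kinetochore protein Cenpf, 673 (95% interval 186 to 5559) for the DNA glycosylase Neil3, 628 (95% interval 214 to 3047) for the spindle pole protein Aspm and 532 (95% interval 147 to 4396) for the cohesin acetyltransferase Esco2.

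Among replication genes, Rrm2, a subunit of ribonucleotide reductase, went from 138, 136 and 111 to 0.892, 1.09 and 1.33 CPM (-6.86 ± 0.20), and its partner Rrm1 fell by 3.41 ± 0.13. Mcm5, part of the replicative helicase, went from 178, 175 and 122 to 4.08, 5.11 and 5.79 CPM (-4.98 ± 0.27). The transcription factor gene E2f1 was the member that did not pass (-0.13 ± 0.12). Cdkn1a, the cell cycle inhibitor p21, rose from 489, 495 and 362 to 2322, 2026 and 1657 CPM, by 2.16 ± 0.22. Of 19 p53 targets and cell cycle inhibitors 10 rose and 4 fell, against 30.6% and 33.3% of all genes. Their median was 0.31, while by library totals 5 rose and 4 fell with a median of -0.01. The members that fell were Trp53 itself (-0.63 ± 0.10), Cdkn2c (-3.37 ± 0.23), Sesn1 (-3.11 ± 0.30) and Trp53inp1 (-0.39 ± 0.16). For Trp53inp1 resting and stimulated values overlapped, and it was at -0.17 (adjusted p = 0.357) without resting 25HC mouse 3, at -0.31 (adjusted p = 0.133) without stimulated mouse 3 and at -0.40 (adjusted p = 0.0789) with only the compared groups in the fit.

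Replication genes fell further with 25HC than without at 10 of 26 members and less far at 1, against 6.95% and 5.34% of all genes. Rrm2 went from 100.5, 105 and 78.6 to 2.4, 2.16 and 1.46 CPM in untreated cells and differed by -1.30 ± 0.27, and Cdc6, which loads the helicase, differed by -1.69 ± 0.45, with an adjusted p of 0.0527 without stimulated 25HC mouse 2 and 0.0578 by limma with a mouse correlation. Tyms, thymidylate synthase, fell less far with 25HC (1.52 ± 0.30). Of the 30 mitosis genes 6 fell further, against 6.95% of all genes, and 1, the spindle midzone gene Prc1, less far (1.47 ± 0.30), and the count of 6 was 3 without stimulated 25HC mouse 2. The count of 10 replication genes was 3 with only the compared groups in the fit and 3 without stimulated 25HC mouse 2. It was 4 without resting 25HC mouse 1, resting 25HC mouse 2 or untreated resting mouse 3, and 12 without resting 25HC mouse 3.

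Windows of 3 of these genes are shown. They fell the furthest of the members with the motif searched in their only window, free of annotated exons, on the chromosomes kept. The CHR element, which the DREAM complex uses, was searched as TTTGAA on either strand. It stood in windows of 8 of 25 mitosis genes (32.0%) and in 16.0% of all single windows. The E2F site was searched as TTTCCCGC or TTTGGCGC on either strand. It stood in windows of 5 of 21 replication genes (23.8%) and in 1.3% of all single windows. The Ccnb2 window is chr9:70421555-70421804 on the minus strand and the Kif11 window chr19:37376132-37376381 on the plus strand, with CHR matches in capitals. These matches end 161 and 13 bases before the start. The Mcm5 window is chr8:75109259-75109508 on the plus strand, with its E2F match in capitals, ending 141 bases before the start. For these 3 genes the bases after the start were not found near the beginning of a GENCODE vM21 transcript of the gene.
Ccnb2: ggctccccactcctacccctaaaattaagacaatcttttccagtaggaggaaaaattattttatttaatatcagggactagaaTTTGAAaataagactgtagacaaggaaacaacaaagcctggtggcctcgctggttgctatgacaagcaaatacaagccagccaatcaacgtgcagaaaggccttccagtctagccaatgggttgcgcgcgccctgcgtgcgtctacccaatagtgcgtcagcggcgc
Kif11: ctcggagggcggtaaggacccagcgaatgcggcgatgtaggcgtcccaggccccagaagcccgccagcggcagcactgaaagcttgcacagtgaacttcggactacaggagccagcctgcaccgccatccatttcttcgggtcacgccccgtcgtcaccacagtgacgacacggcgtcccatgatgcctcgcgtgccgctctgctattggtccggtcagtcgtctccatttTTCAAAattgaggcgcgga
Mcm5: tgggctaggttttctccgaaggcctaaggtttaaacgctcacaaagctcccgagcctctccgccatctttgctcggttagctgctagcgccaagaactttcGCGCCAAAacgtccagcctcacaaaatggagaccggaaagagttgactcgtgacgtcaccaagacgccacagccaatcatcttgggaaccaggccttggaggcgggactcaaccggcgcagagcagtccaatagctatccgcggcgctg
Ccnb2, cyclin B2, fell by 8.09 ± 0.29 and Kif11, the spindle motor Eg5, by 7.64 ± 0.19.

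**Figure D3:**
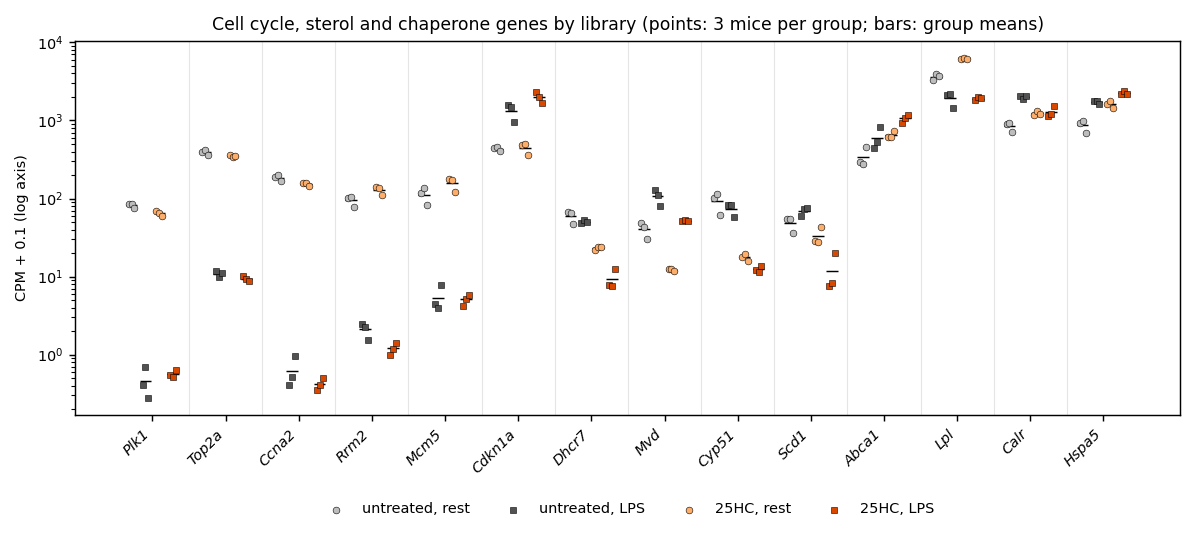
Levels (CPM plus 0.1, log axis) of 6 cell cycle genes, 6 sterol and lipid genes and 2 chaperone genes in untreated and 25HC-pretreated macrophages at rest and after LPS. Points are the 3 mice and bars the group means. Plk1, Ccna2 and Rrm2 lie above 60 CPM in each resting library and below 3 CPM in each stimulated 25HC library.

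Sterol synthesis genes, which 25HC is known to hold down, did not move as a block after LPS. Of 24 SREBP2 targets 3 rose and 9 fell, against 30.6% and 33.3% of all genes, with a median of -0.10. The counts were 3 and 11 by library totals and 5 and 9 with the mouse as a replicate block. Mvd, an enzyme of the mevalonate pathway, rose from 12.4, 12.6 and 11.6 to 51.3, 53.4 and 51.6 CPM, by 2.09 ± 0.16. Dhcr7, an enzyme late in the pathway, fell from 22.1, 23.6 and 23.5 to 7.71, 7.4 and 12.2 CPM (-1.34 ± 0.19). Hmgcs1, Sqle and Insig1 were at 0.29 ± 0.13, -0.16 ± 0.20 and 0.27 ± 0.15 and did not pass, although Hmgcs1 did with the mouse as a replicate block (adjusted p = 0.0442). Cyp51 was at -0.52 ± 0.18 and passed, with an adjusted p of 0.0554 without stimulated mouse 2 and 0.0556 without resting mouse 2. Dhcr7 fell further than in untreated cells (-1.09 ± 0.25). The sterol regulatory element was searched as TCACNCCAC on both strands. It stood in windows of 1 of 17 genes of the list (5.88%) and in 1.05% of all single windows.

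Of 16 LXR targets 7 fell and 2 rose, where 33.3% of all genes fell and 30.6% rose. Their median was -0.18, with 9 lower and 1 higher by library totals and 8 lower and 4 higher with the mouse as a replicate block. Abca1, the cholesterol exporter, rose from 616, 606 and 732 to 939, 1062 and 1189 CPM, by 0.71 ± 0.21, or 0.39 (adjusted p = 0.124) by library totals, and Abcg1, its partner, was at -0.05 ± 0.13 and did not pass. Nr1h3, which codes for LXR alpha, rose by 1.59 ± 0.20. Lpl, lipoprotein lipase, fell from 6167, 6364 and 6151 to 1807, 1988 and 1939 CPM (-1.70 ± 0.16). Scd1, the stearoyl-CoA desaturase, fell from 28.2, 27.8 and 42.7 to 7.39, 8.23 and 20 CPM (-1.48 ± 0.36), and Fasn, fatty acid synthase, fell by 1.04 ± 0.25. Of the 16, 7 had a lower response with 25HC than without and 1 a higher one, against 6.95% and 5.34% of all genes. Scd1 was at 55.4, 54.5 and 35.7 and 59, 74.4 and 76.3 CPM in untreated cells, a difference of -2.00 ± 0.50 (adjusted p = 0.011), and Smpdl3a, a lipid phosphodiesterase, differed by -0.95 ± 0.18. The count of 7 was 4 by library totals, with only the compared groups in the fit, and without stimulated 25HC mouse 1, stimulated 25HC mouse 2, resting 25HC mouse 1, untreated stimulated mouse 3 or untreated resting mouse 1.

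Among genes that make, sense or carry oxysterols, 8 of 21 rose and 10 fell, against 30.6% and 33.3% of all genes. Their median was -0.17, and by library totals 3 rose and 12 fell. Ch25h, which makes 25HC, fell from 13.3, 12.5 and 4.46 to 1.98, 3.86 and 2 CPM (-1.94 ± 0.54). Cyp27a1, which makes 27-hydroxycholesterol, fell by 3.32 ± 0.43, and Gpr183, the receptor for a product of 25HC, fell from 38.4, 36.5 and 37.6 to 3.7, 2.92 and 2.53 CPM (-3.62 ± 0.39). Osbp rose from 100.3, 101 and 88.5 to 133, 142 and 119 CPM, by 0.44 ± 0.09, or 0.12 (adjusted p = 0.227) by library totals. Soat2, which esterifies cholesterol, rose by 1.40 ± 0.25, and Soat1 did not pass (0.22 ± 0.10). Nceh1, which hydrolyses cholesterol esters, fell further than in untreated cells (-0.67 ± 0.15).

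Lipid droplet and fatty acid genes split, 11 of 24 higher and 7 lower, against 30.6% and 33.3% of all genes. Their median was 0.42, and by library totals the counts were 8 and 9. Acsl1, which activates long-chain fatty acids, rose from 72.6, 75 and 65.8 to 1866, 2248 and 2078 CPM, by 4.86 ± 0.19. Plin2, the main coat protein of macrophage lipid droplets, fell from 1304, 1349 and 1399.8 to 684, 628 and 501 CPM (-1.16 ± 0.13), and Lpin1, a phosphatidate phosphatase, fell by 2.35 ± 0.21. Dgat2, which makes triglycerides, rose from 0.147, 0.562 and 0.35 to 6.95, 11 and 14.2 CPM, further than in untreated cells by 2.66 ± 0.55. Elovl5, a fatty acid elongase, fell (-0.80 ± 0.09) where untreated cells were at 0.01. Gpr84, a receptor for medium-chain fatty acids, was at 30.2, 39.3 and 5.47 CPM at rest and 44.2, 61.2 and 47.9 CPM after LPS (1.03 ± 0.38). Its resting level was lowest in mouse 3, and without that library the value was 0.56 (adjusted p = 0.0793). Without stimulated mouse 2 it was 0.88 (adjusted p = 0.0787), and by library totals 0.70 (adjusted p = 0.109). With only the compared groups in the fit the adjusted p was 0.132. Its response was below that of untreated cells (-2.68 ± 0.59), or -2.31 (adjusted p = 0.0797) by limma with a mouse correlation.

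Golgi and transport genes rose by small amounts at 23 of 30 members, with a median of 0.50, while by library totals 14 rose and 6 fell. Golgb1, the giant golgin, rose by 1.27 ± 0.15, Sec23b, a coat protein of vesicles that leave the endoplasmic reticulum, by 0.87 ± 0.11, and the cargo receptor Surf4 by 0.92 ± 0.09. Kdelr2, which returns escaped chaperones, was at 138, 131 and 121 CPM at rest and 136, 148 and 140.4 CPM after LPS, with overlapping groups (0.12 ± 0.07). Sec24d, another vesicle coat protein, rose by 0.53 ± 0.08, less far than in untreated cells (-0.54 ± 0.12).

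Chaperones of the unfolded protein response changed by small amounts. Of 21 members 9 rose and 3 fell, against 30.6% and 33.3% of all genes. Their median was 0.19, and by library totals 5 rose and 8 fell. Hspa5, the chaperone BiP, rose from 1609, 1772 and 1426 to 2156, 2416 and 2184 CPM, by 0.49 ± 0.13, or 0.17 (adjusted p = 0.24) by library totals. Ern1 and Syvn1, a stress sensor and a ubiquitin ligase of the endoplasmic reticulum, rose by 0.98 ± 0.13 and 0.72 ± 0.10. Those that fell were Sdf2l1 (-0.53 ± 0.21), Herpud1 (-0.55 ± 0.15) and Sel1l (-0.29 ± 0.08). Herpud1 had overlapping groups. The adjusted p for Sdf2l1 was 0.131 and 0.115 without stimulated mice 1 and 2, and 0.0693 and 0.0998 without resting mice 1 and 2.

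The response was lower with 25HC than without at 11 of those 21 members, against 6.95% of all genes, and the median difference was -0.50. Calr, the chaperone calreticulin, was at 1186, 1324 and 1199.5 CPM and 1142, 1196 and 1513 CPM with 25HC, with overlapping groups, and at 901, 939 and 719 and 2054, 1887 and 2072 CPM without, a difference of -1.18 ± 0.19 (adjusted p = 0.000387). Pdia3, a disulfide isomerase, differed by -0.79 ± 0.16 and Dnajc3, a co-chaperone, by -0.70 ± 0.14. The resting 25HC libraries were above the resting untreated ones for Calr, and the stimulated untreated libraries were the highest. The count of 11 was 7 with only the compared groups in the fit, and 7 without stimulated 25HC mouse 1, resting 25HC mouse 2 or untreated resting mouse 3.

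ATF4 targets rose at 11 of 25 members and fell at 4, against 30.6% and 33.3% of all genes. Their median was 0.41, or 0.13 without resting 25HC mouse 3, and by library totals 9 rose and 6 fell. Slc7a11, the cystine transporter, rose from 4.86, 5.45 and 2.64 to 180.3, 269 and 217 CPM, by 5.67 ± 0.44, Ppp1r15a, which reverses the stress block of translation, by 2.48 ± 0.28, and Ddit3, the factor CHOP, by 1.48 ± 0.25. Atf4 itself rose by 1.01 ± 0.18. Shmt2 and Psat1, enzymes of serine and folate metabolism, fell by 1.73 ± 0.23 and 1.27 ± 0.23, together with Psph (-1.02 ± 0.23) and the amino acid transporter Slc7a5 (-1.42 ± 0.37), whose groups overlapped. Chac1, which degrades glutathione, was at 11.3, 15 and 4.26 CPM at rest and 7.97, 10.8 and 13 CPM after LPS and did not pass (0.05 ± 0.39). Ddit4, an inhibitor of mTORC1, rose from 3.63, 3.15 and 2.77 to 44, 29.3 and 31.1 CPM, further than in untreated cells by 2.54 ± 0.23. Mthfd2, a mitochondrial folate enzyme, rose less far (-1.67 ± 0.35). The C/EBP-ATF element TTGCATCA, searched on both strands, stood in windows of 4 of 19 genes of this list (21.1%) and in 0.791% of all single windows. For the Golgi stress element ACGTGGC it was 4 of 24 Golgi genes (16.7%) and 2.02% of all single windows.

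NRF2 targets and antioxidant genes rose at 15 of 20 members and fell at 3, with a median of 0.77. Hmox1, which degrades heme, rose from 361, 415 and 310.0 to 7014, 3506 and 2859.5 CPM, by 3.62 ± 0.33, the mitochondrial superoxide dismutase Sod2 by 4.61 ± 0.16 and the glutathione reductase Gsr by 2.10 ± 0.20. Falls were called in Nfe2l2 itself (-0.39 ± 0.09), the transketolase Tkt (-0.39 ± 0.08) and the glutathione peroxidase Gpx1, from 583, 559 and 579.6 to 149, 133 and 189 CPM (-1.87 ± 0.18). Iron genes split, 7 of 15 higher and 4 lower, against 30.6% and 33.3% of all genes, and 7 and 7 by library totals. Fth1, the ferritin heavy chain, rose from 7809, 7445 and 8271 to 47123, 41756 and 43706 CPM, by 2.49 ± 0.13, and the iron importers Slc11a1 and Slc11a2 by 1.85 ± 0.10 and 1.91 ± 0.15. Slc40a1, the iron exporter ferroportin, fell from 249, 221 and 234 to 78, 61.5 and 51.8 CPM (-1.88 ± 0.39), as did the iron regulator Hfe (-1.75 ± 0.36), the ferrireductase Steap3 (-2.23 ± 0.16) and the hemoglobin scavenger receptor Cd163 (-2.67 ± 0.49). Steap3 fell further than in untreated cells (-1.15 ± 0.22).

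Glycolysis genes rose at 17 of 22 members and fell at 2, with a median of 1.13. Pfkfb3, which makes the activator of phosphofructokinase, rose from 22.2, 23.7 and 21.4 to 863, 634 and 769.7 CPM, by 5.07 ± 0.19, the glucose transporter Slc2a1 by 2.59 ± 0.23, the lactate exporter Slc16a3 by 2.37 ± 0.25 and hexokinase 2, Hk2, by 2.08 ± 0.20. The members that fell were the transporter Slc2a3 (-0.72 ± 0.14) and the muscle phosphofructokinase Pfkm (-0.61 ± 0.19), which was at -0.40 (adjusted p = 0.0727) without resting 25HC mouse 3. Citric acid cycle and respiratory chain genes gave 10 higher and 10 lower of 32, against 30.6% and 33.3% of all genes. Their median was 0.04, and by library totals 1 was higher and 20 were lower. Idh3a, a subunit of isocitrate dehydrogenase, fell from 43.7, 48.8 and 31.2 to 15.6, 19.8 and 27.8 CPM (-0.97 ± 0.19), Fh1, fumarase, by 0.93 ± 0.10 and Idh2 by 0.92 ± 0.15. Sdha and Sdhc, subunits of succinate dehydrogenase, were at -0.30 ± 0.05 and -0.42 ± 0.09, while Sdhb was at 0.34 ± 0.08, or 0.03 (adjusted p = 0.797) by library totals. Ndufa4, an electron transport subunit, fell from 95.7, 99 and 107 to 53.4, 52.8 and 72.7 CPM (-0.75 ± 0.13). Ribosome biogenesis genes fell at 13 of 20 and rose at 1, with a median of -0.51, and by library totals 18 fell and 0 rose. The falls included the nucleolar chaperone Npm1 (-0.98 ± 0.07), nucleolin, Ncl (-0.53 ± 0.07), and the assembly factor Wdr12 (-1.20 ± 0.15). Heatr1 was the member that rose (0.47 ± 0.17), and it was at 0.34 (adjusted p = 0.113) without resting 25HC mouse 3, 0.36 (adjusted p = 0.101) without stimulated mouse 2 and 0.16 (adjusted p = 0.481) by library totals.

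**Figure D4:**
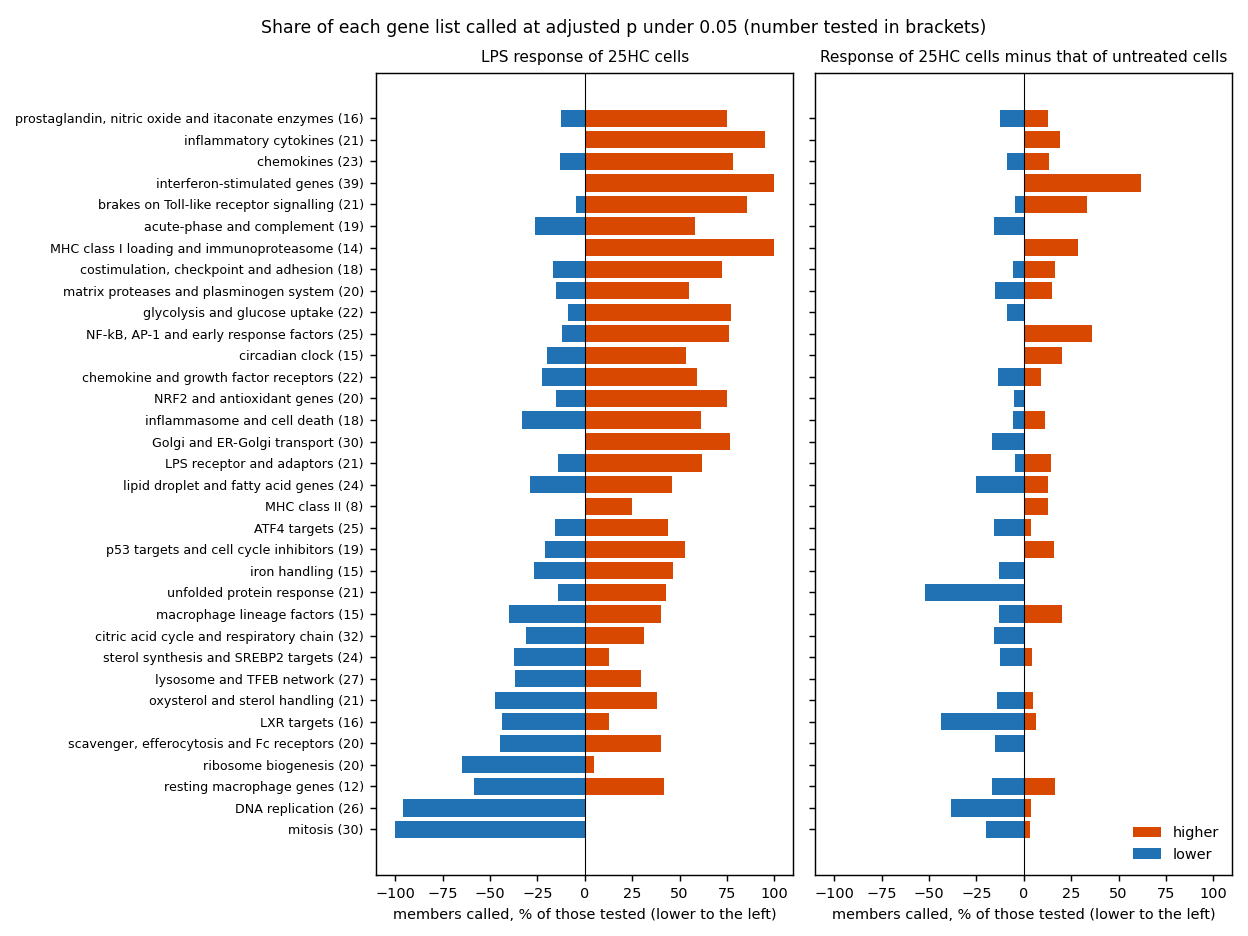
Share of the tested members of each gene list that were called higher or lower (adjusted p under 0.05, TMM scaling), for the LPS response of 25HC-pretreated macrophages (left) and for that response minus the response of untreated macrophages (right). All 39 interferon-stimulated genes are higher and all 30 mitosis genes lower on the left. Over all genes tested 30.6% were higher and 33.3% lower on the left, and 5.34% and 6.95% on the right. By library totals the left panel would show more falls than rises for the unfolded protein response (5 against 8) and for lipid droplet genes (8 against 9), and 1 rise and 20 falls for the citric acid cycle and respiratory chain.

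Antigen presentation genes were taken by class. All 14 class I loading and immunoproteasome genes rose, with a median of 1.75, or 13 by library totals. Tap1, the peptide transporter, rose from 88.3, 91.7 and 84.5 to 622, 544 and 382 CPM, by 2.55 ± 0.17, the chaperone Tapbp by 2.13 ± 0.12, the immunoproteasome subunit Psmb8 by 1.91 ± 0.11 and Nlrc5, the class I transactivator, by 2.14 ± 0.19. Of 8 class II genes 2 rose, H2-Ab1 and H2-DMa, where 30.6% of all genes did, and the median was 0.42. The count was 1 by library totals, where H2-DMa was at 0.29 (adjusted p = 0.309), and 1 without stimulated mouse 1, stimulated mouse 3, resting mouse 1 or resting mouse 2. H2-Ab1 rose from 5.15, 7.53 and 6.56 to 73.8, 85 and 82.8 CPM, by 3.65 ± 0.37, while its partner chain H2-Aa was at 6.38, 10.7 and 8.31 and 8.16, 7.4 and 12.1 CPM and did not pass (0.12 ± 0.39). Ciita, the class II transactivator, was at 0.196, 0.394 and 0.732 and 0.956, 0.625 and 0.932 CPM and did not pass (0.95 ± 0.59).

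Costimulatory, checkpoint and adhesion genes rose at 13 of 18 and fell at 3, with a median of 1.74. Cd274, which codes for PD-L1, rose from 21.7, 20.2 and 25.1 to 2826, 2479 and 1650.4 CPM, by 6.70 ± 0.36, the integrin Itgal by 4.84 ± 0.32, Cd40 by 3.41 ± 0.29 and Cd86 by 1.89 ± 0.33. Slamf1, a self-ligand receptor, was at 0, 0.0562 and 0.0955 CPM at rest and 160.4, 106 and 82.7 CPM after LPS, a ratio of 2498 (95% interval 864 to 25790.0). Like the other ratios and bounds, it takes 2 counts as a read in resting mouse 3 too, where the count was odd. Havcr2, which codes for TIM-3 (-1.74 ± 0.22), the integrin Itgax (-1.32 ± 0.40) and the inhibitory receptor Cd200r1 (-0.96 ± 0.15) fell. Havcr2 fell less far than in untreated cells (1.21 ± 0.31).

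Uptake receptors split, 8 of 20 higher and 9 lower, against 30.6% and 33.3% of all genes. Their median was -0.44, and by library totals the counts were 8 and 10. The Fc receptors Fcgr1, Fcgr2b and Fcgr4 rose by 3.12 ± 0.29, 3.45 ± 0.23 and 3.04 ± 0.23, the scavenger receptor Marco from 2.8, 2.87 and 1.02 to 308, 478 and 421 CPM, by 7.47 ± 0.38, and the mycobacterial glycolipid receptor Clec4e from 137, 127 and 28.9 to 4181, 4642 and 3608 CPM, by 5.41 ± 0.51. Mouse 3 had the lowest resting Clec4e, and without that library the rise was 4.97. Mrc1, the mannose receptor, fell from 847, 829.9 and 919 to 32.9, 25.2 and 39.7 CPM (-4.73 ± 0.30). Trem2, a lipid-sensing receptor, fell from 730.1, 775 and 962 to 112, 76.5 and 92.3 CPM (-3.13 ± 0.23), and Gas6, a bridge to apoptotic cells, from 563, 564 and 736 to 48.2, 39.9 and 59.2 CPM (-3.66 ± 0.14). Trem1, an amplifier of Toll-like receptor signals, was at 24.7, 22.2 and 2.16 CPM at rest and 4.4, 10.5 and 3.86 CPM after LPS, with overlapping groups, and did not pass (-1.38 ± 0.61).

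Of 22 cytokine and chemokine receptors 13 rose and 5 fell, against 30.6% and 33.3% of all genes, with a median of 0.89. Tnfrsf1b, the second TNF receptor, rose from 253, 243 and 367 to 5952, 5235 and 4214 CPM, by 4.16 ± 0.30, and the interferon receptor genes Ifnar1, Ifnar2 and Ifngr2 by 1.58 ± 0.12, 1.78 ± 0.12 and 1.32 ± 0.10. Ifngr1, the ligand-binding chain for interferon gamma, fell from 249, 252 and 266 to 115, 109.6 and 131 CPM (-1.11 ± 0.12), where untreated cells were at -0.02, a difference of -1.09 ± 0.17. The other falls were Cx3cr1 (-4.97 ± 0.57), Ccr2 (-3.37 ± 0.43), Cxcr4 (-2.67 ± 0.39) and Il6ra (-0.84 ± 0.17). Cx3cr1, the fractalkine receptor, went from 70.6, 70.8 and 40 to 0.829, 1.56 and 3.46 CPM with 25HC and from 7.7, 8.23 and 11 to 1.66, 2.28 and 5.35 CPM without, a difference of -3.44 ± 0.77 (adjusted p = 0.0052). Its resting level was higher with 25HC in each mouse, and the stimulated levels overlapped.

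Of 12 tested resting macrophage genes 5 rose and 7 fell, against 30.6% and 33.3% of all genes, with a median of -1.57. Selenop, a selenium transport protein, fell from 734, 713 and 1876 to 202, 137 and 252 CPM (-2.49 ± 0.36) and the folate receptor Folr2 by 1.60 ± 0.14. Siglec1, a sialic acid receptor that interferon induces, rose by 1.67 ± 0.25, the endothelin receptor Ednrb by 2.23 ± 0.33 and Gas7 by 1.19 ± 0.11. Among 15 lineage factors 6 rose and 6 fell, against 30.6% and 33.3% of all genes. Their median was 0.16, and by library totals the counts were 6 and 7. Pparg, the fatty acid receptor PPAR gamma, fell from 44.9, 47.2 and 61 to 4.97, 5.05 and 4.19 CPM (-3.42 ± 0.20), Maf by 1.40 ± 0.24 and Klf2 by 2.00 ± 0.31. Spic, the factor of red pulp macrophages, rose by 4.55 ± 0.42, and Tfec, a relative of TFEB, by 1.16 ± 0.14, where untreated cells were at 0.05 (difference 1.11 ± 0.20).

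Lysosome genes gave 8 rises and 10 falls of 27, where 30.6% of all genes rose and 33.3% fell. Their median was -0.13, and by library totals the counts were 5 and 17. The cathepsin Ctsz rose from 1024, 1075 and 986 to 2949, 2823 and 2622 CPM, by 1.44 ± 0.10. Hexa, a subunit of hexosaminidase, fell by 1.10 ± 0.12.

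Of 18 inflammasome and cell death genes 11 rose and 6 fell, against 30.6% and 33.3% of all genes, with a median of 0.65. Casp4, the sensor of cytosolic LPS, rose from 21.9, 22.5 and 24.1 to 164, 139 and 104 CPM, by 2.57 ± 0.19, its target Gsdmd by 1.19 ± 0.09 and the NAIP family gene Naip2, a sensor of bacterial secretion systems, by 2.03 ± 0.10. Nlrp3 rose from 112, 121 and 68.2 to 200.4, 270.3 and 182 CPM, by 1.11 ± 0.18. Pycard, the adaptor ASC, fell from 52.7, 57.7 and 54.1 to 36.1, 26.9 and 40.6 CPM (-0.67 ± 0.23), and its adjusted p was 0.0824 without stimulated mouse 2. Gsdme, P2rx7, Ripk3 and Nek7 fell by 1.49 ± 0.18, 0.92 ± 0.16, 0.63 ± 0.14 and 0.54 ± 0.07. Ripk1 was at -0.17 ± 0.07 and lost its call without 4 of the 6 libraries taken 1 at a time, resting mice 1 and 3 and stimulated mice 1 and 3 (adjusted p 0.0676 to 0.137), and with only the compared groups (0.058), no filter (0.0703) or DESeq2 size factors (0.0504).

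Matrix genes rose at 11 of 20 and fell at 3, against 30.6% and 33.3% of all genes, with a median of 1.14. Mmp14, a membrane-bound protease, rose from 1.08, 1.12 and 0.191 to 294, 333 and 356 CPM, by 8.63 ± 0.48. Mmp12, the macrophage elastase, fell by 1.42 ± 0.24, the inhibitor Timp2 by 2.41 ± 0.28 and Plau, urokinase, from 507, 589.6 and 378 to 32.3, 23.9 and 21.3 CPM (-4.25 ± 0.41), further than in untreated cells (-2.18 ± 0.52). Tgm2, a transglutaminase, rose further than in untreated cells (1.36 ± 0.25). Of 15 clock genes 8 rose and 3 fell, against 30.6% and 33.3% of all genes. Among those on the rising side were Nfil3 (3.18 ± 0.16), Per2 (2.65 ± 0.22), Cry1 (2.13 ± 0.15) and Per1 (1.84 ± 0.19). Arntl, Dbp and Per3 were on the falling side (-0.55 ± 0.09, -1.66 ± 0.38 and -0.84 ± 0.25), and Per3 was at -0.41 (adjusted p = 0.136) without resting 25HC mouse 3.

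Set beside the response of untreated macrophages, most of this response was shared. Of the 4031 genes that rose here, 3134 (77.75%) also rose in untreated cells, where they were 77.27% of the 4056 that rose. Of the 4388 that fell here, 3214 (73.25%) also fell there, 81.0% of 3968. Among the shared rises 238 were larger with 25HC and 138 smaller, and among the shared falls 279 were larger in size with 25HC and 87 smaller. Pearson's r between the 2 responses was 0.8772 across genes, which are not independent replicates. The scatter of the 2 responses shows the genes whose difference passed. The 704 and 916 genes with a called difference became 410 and 479 without stimulated 25HC mouse 2, 449 and 613 without stimulated 25HC mouse 1, and 909 and 1167 without stimulated 25HC mouse 3. They became 457 and 580 without resting 25HC mouse 1, 450 and 580 without resting 25HC mouse 2, 445 and 569 without untreated resting mouse 3, and 701 and 1015 without resting 25HC mouse 3.

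**Figure D5:**
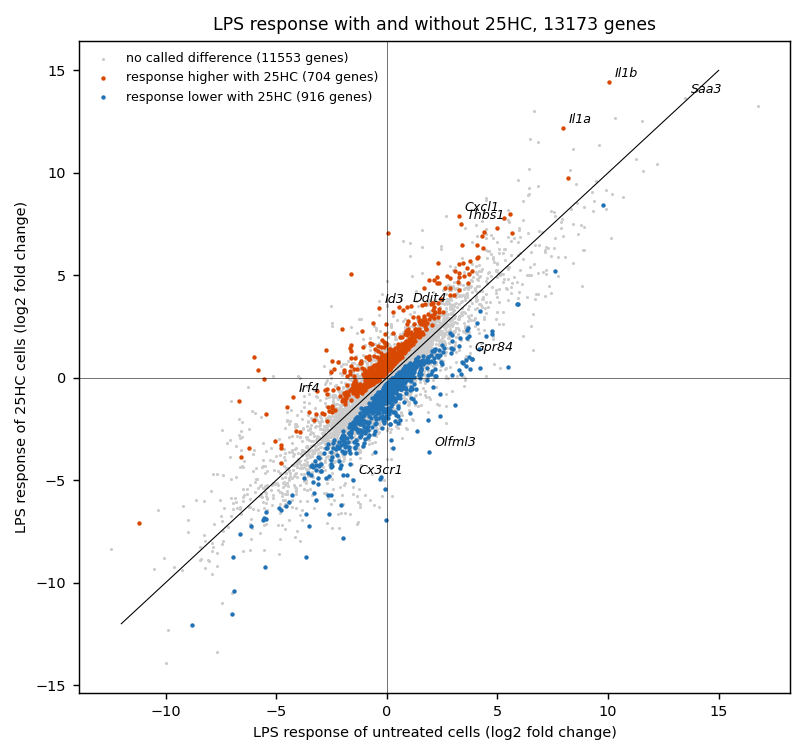
LPS response of 25HC-pretreated macrophages (vertical axis, log2 fold change) against that of untreated macrophages (horizontal axis, log2 fold change) for the 13173 genes tested. The 704 genes with a higher and the 916 genes with a lower response with 25HC are coloured and the other genes are grey, and most points lie near the diagonal.

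Among genes above a mean level of 2 log2 CPM whose responses did not overlap between mice, the largest positive differences, after Cxcl1, Il1b and Il1a, were Thbs1, Id3, Samd4, Ahr, Cish, Irf4 and Ms4a4a. Thbs1, the matrix protein thrombospondin 1, went from 4.37, 3.26 and 5.09 to 705, 1143 and 464 CPM with 25HC and from 20.7, 13.1 and 31.4 to 94.1, 130.4 and 443 CPM without, a difference of 4.15 ± 0.60 (adjusted p = 0.000108). The resting libraries were lower with 25HC and the stimulated libraries higher, without overlap. Id3, an inhibitor of helix-loop-helix factors, went from 1.23, 1.41 and 2.1 to 20.6, 17.6 and 11.6 CPM and without 25HC from 3.17, 4.64 and 7.49 to 5.59, 3.96 and 2.43 CPM (3.75 ± 0.53). It rose here and was at -0.34 in untreated cells. Ahr, the aryl hydrocarbon receptor, rose here from 3.73, 2.81 and 5.51 to 20.2, 31.5 and 25.6 CPM and stood at 8.22, 6.2 and 11.1 and 5.84, 4.74 and 5.71 CPM without 25HC (3.34 ± 0.38). Samd4, an RNA-binding repressor of translation, differed by 3.70 ± 0.55. Irf4, an interferon regulatory factor, was at 3.34, 2.42 and 5.98 CPM at rest and 1.72, 3.02 and 1.2 CPM after LPS here, with overlapping groups (-0.96 ± 0.38), and fell from 8.69, 9.85 and 15.7 to 0.799, 0.6 and 0.425 CPM in untreated cells (3.26 ± 0.57). Its fall here was not called without stimulated mouse 1, stimulated mouse 3 or resting mouse 3 (adjusted p = 0.0915, 0.136 and 0.255), nor with only the compared groups in the fit (0.0755) or by limma (0.0567). Ms4a4a, a membrane protein of macrophages, rose from 0.589, 0.394 and 1.94 to 78.1, 84.1 and 87.1 CPM (6.47 ± 0.65) and differed by 3.06 ± 0.79, with an adjusted p of 0.0519 and 0.0533 without resting 25HC mice 1 and 2 and 0.058 without untreated resting mouse 3.

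By the same limits on level and overlap, the negative differences reported are, besides that of Cx3cr1, those of Il18rap, Exo1, Shcbp1, Cd244a, Pald1, Sirpb1c, Pcp4l1 and Sirpb1a. Il18rap, a subunit of the interleukin 18 receptor, was at 8.93, 9.33 and 7.06 CPM at rest and 0.127, 0.0521 and 0.0666 CPM after LPS with 25HC, and fell from 8.51, 8.02 and 7.86 to 1.54, 1.08 and 1.34 CPM without, a difference of -4.03 ± 0.65 (adjusted p = 0.000332). Exo1, a DNA repair exonuclease, had 15.4, 16.6 and 10.3 CPM and then 0, 0 and 0.0666 CPM, a ratio of 715 (95% interval 128 to 28280.0), and went from 10.4, 11.8 and 8.48 to 0.123, 0.12 and 0.425 CPM without 25HC. Its call was lost without stimulated 25HC mice 1 and 2 and untreated stimulated mouse 3 (adjusted p = 0.0528, 0.0679 and 0.0919). Shcbp1, a cytokinesis protein, went from 34.2, 30.5 and 30.8 to 0, 0.0521 and 0 CPM and without 25HC from 34.8, 37.9 and 29.5 to 0.307, 0.18 and 0.365 CPM. Pald1 differed by -3.09 ± 0.37 and Pcp4l1 by -2.96 ± 0.43. Sirpb1c and Sirpb1a, paired receptors of myeloid cells with near-identical copies whose reads may be split, differed by -2.98 ± 0.58 and -2.88 ± 0.50.

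In 97 of the 13173 genes tested the 2 responses were called in opposite directions, 44 rising and 53 falling with 25HC. The difference was called in each, which follows largely from that choice and adds no support. Olfml3, a secreted matrix protein, fell here from 6.72, 6.13 and 8.66 to 0.319, 0.417 and 1.06 CPM (-3.60 ± 0.53) and rose in untreated cells from 0.662, 0.313 and 0.372 to 0.983, 1.44 and 2.8 CPM, a difference of -5.52 ± 0.77 (adjusted p = 7.88e-05). Its resting level was higher with 25HC in each mouse. Cd244a, an inhibitory and activating receptor of the SLAM family, was at 3.58, 4.84 and 2.35 and then 2.23, 1.41 and 2.6 CPM here (-0.80 ± 0.30) and at 1.61, 2.24 and 1.55 and then 10.2, 9.48 and 8.75 CPM in untreated cells (-3.19 ± 0.42). The fall of Cd244a was not called without stimulated mouse 2 or resting mouse 2 (adjusted p = 0.13 and 0.158), nor with only the compared groups in the fit (0.0613). Gatm, the first enzyme of creatine synthesis, rose here from 92.5, 101 and 124 to 313, 409.8 and 281 CPM (1.66 ± 0.26) and fell from 126, 149 and 158 to 91.6, 83 and 101 CPM in untreated cells, a difference of 2.31 ± 0.36.

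The same response was set beside those of itraconazole-pretreated and OSW-1-pretreated cells, at doses that differed between the compounds (5, 1 and 0.3 uM). Both comparisons use the same 6 libraries of 25HC cells. Against itraconazole 116 genes (0.881%) had a higher and 246 (1.87%) a lower response with 25HC, with a median difference of 0.004. With the mouse as a replicate block the higher genes numbered 244 and the lower ones 369. The higher genes numbered 36, 63 and 50 without stimulated 25HC mouse 1 and resting 25HC mice 1 and 2, and 56, 62 and 58 without stimulated itraconazole mouse 2 and resting itraconazole mice 2 and 3. The lower genes numbered 96, 137, 104 and 376 without stimulated 25HC mouse 1 and resting 25HC mice 1, 2 and 3, and 126, 123, 121 and 128 without stimulated itraconazole mice 1 and 2 and resting itraconazole mice 2 and 3. Without stimulated itraconazole mouse 3 the counts were 328 higher and 426 lower. Against OSW-1 3087 genes (23.4%) were higher and 2697 (20.5%) lower, with a median of 0.03, and by library totals 2391 were higher and 3731 lower.

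Against itraconazole the largest positive differences were in Il4i1, Tspoap1, Psrc1, Cenpa and Dusp2. Il4i1, an amino acid oxidase that curbs T cells, went from 1.18, 0.843 and 1.62 to 37.8, 27.5 and 19.6 CPM with 25HC and from 2.61, 2.68 and 12.8 to 18, 21.5 and 14.2 CPM with itraconazole, a difference of 2.99 ± 0.77 (adjusted p = 0.0346). The resting 25HC libraries lay below the resting itraconazole ones, and the stimulated groups overlapped. The call was lost without stimulated 25HC mouse 1, resting 25HC mice 1 and 2, stimulated itraconazole mice 1 and 2 and resting itraconazole mouse 3 (adjusted p 0.0582 to 0.196). Tspoap1 differed by 2.56 ± 0.40, the spindle gene Psrc1 by 2.01 ± 0.46 and the centromeric histone Cenpa by 1.91 ± 0.41. The call for Psrc1 was lost without stimulated 25HC mouse 1, resting 25HC mouse 2 and stimulated itraconazole mouse 2 (adjusted p = 0.0557, 0.0645 and 0.0515), and that for Cenpa without stimulated 25HC mouse 1 (adjusted p = 0.0631). Dusp2, a nuclear phosphatase, differed by 1.67 ± 0.41 and lost its call without stimulated 25HC mouse 1, resting 25HC mice 1 and 2, stimulated itraconazole mice 1 and 2 and resting itraconazole mouse 3 (adjusted p 0.0605 to 0.104). The largest negative ones were in Shcbp1 (-3.25 ± 0.71), the ribosome assembly factor Tsr1 (-1.37 ± 0.28), the tRNA methyltransferase Trmt61a (-1.34 ± 0.31), the stress gene Gadd45a (-1.27 ± 0.31) and Smyd5 (-1.24 ± 0.22). Shcbp1, which had reads in 1 of 3 stimulated 25HC libraries, lost its call without stimulated mouse 1 of either compound (adjusted p = 0.0719 and 0.0558), and Trmt61a without stimulated 25HC mouse 1 or resting 25HC mouse 2 (adjusted p = 0.0718 and 0.0724). Gadd45a lost it without stimulated 25HC mouse 1, resting 25HC mouse 2, stimulated itraconazole mouse 2 and resting itraconazole mice 1 and 2 (adjusted p 0.0513 to 0.0879). With only the compared groups in the fit the adjusted p was 0.0806 for Il4i1, 0.0747 for Dusp2, 0.0552 for Trmt61a and 0.078 for Gadd45a. By limma it was 0.137 for Il4i1 and 0.0529 for Shcbp1.

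Against OSW-1 the largest differences were in Tgfbi, Zfyve28, Nxpe5, Ly6a and Gatm on the higher side and in Scube3, Cx3cl1, Serpinb2, Adamts4 and Ccl22 on the lower. Tgfbi, a matrix protein that macrophages secrete, was at 228, 208 and 232 CPM and then 1414, 1268 and 1701 CPM with 25HC and at 317, 404 and 578 and then 1.81, 1.98 and 13.1 CPM with OSW-1, a difference of 8.96 ± 0.66 (adjusted p = 2.88e-10). Gatm was at 108, 167 and 234 CPM at rest and 4.57, 5.61 and 13.5 CPM after LPS with OSW-1, a difference of 6.07 ± 0.39. Ly6a, an interferon-induced surface protein, differed by 6.23 ± 0.71, Nxpe5 by 6.34 ± 1.63 and Zfyve28 by 7.27 ± 2.28, whose call was lost without stimulated 25HC mouse 3 (adjusted p = 0.0633). In the other direction Scube3, a secreted glycoprotein, was under 1 CPM in each 25HC library and went from 0.0436, 0 and 0 to 39.9, 53 and 44.9 CPM with OSW-1. Cx3cl1 reached 69.5, 62.2 and 56.4 CPM after LPS with OSW-1 (-6.52 ± 0.55) and Ccl22 973, 1273 and 2041 CPM (-5.20 ± 1.17). Adamts4, an aggrecanase, differed by -5.58 ± 1.16, and Serpinb2, an inhibitor of urokinase, by -6.30 ± 1.97, with an adjusted p of 0.22 without resting 25HC mouse 1 and 0.0587 with even counts halved. By limma the adjusted p was 0.0956 for Nxpe5, 0.0695 for Zfyve28 and 0.0712 for Serpinb2. Il1b was at 1.8, 1.79 and 1.86 CPM and then 12277, 11329 and 9689.6 CPM with itraconazole and at 3.96, 3.81 and 3.98 and then 9040.5, 10230.0 and 14538 CPM with OSW-1.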

How the data were processed

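RNA was sequenced from 30 libraries of mouse bone-marrow-derived macrophages, and 6 of them carry the response described here. The authors deposited 1 table of raw counts per gene and library, unnormalised. Per the submitters' processing notes, the tools were FastQC 0.11.9, GSNAP, featureCounts of Subread 1.5.2 and edgeR 3.26.8 on GRCm38 (mm10), and per the labels' protocols the library kit was Illumina TruSeq stranded, on polyA RNA. The annotation release and the strand setting of the counting are not given in the sources used here, so overlapping genes and near-identical copies are uncertain. Deposited counts were all even in 20 libraries, and halving them is one of the alternatives.

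Gene symbols were taken from GENCODE vM21 by Ensembl ID (30126 of 30538 IDs matched). All 30 count columns were mapped to samples by their names (0 unused), no 2 libraries were identical, and 11735 genes had 0 counts in all libraries. Genes were kept by edgeR's filter at a minimum count of 10 (13173 genes, at least 99.98% of the counts of each library). The fit was edgeR 4.0.16 in R 4.3.3, with TMM factors and the quasi-likelihood test, over all 30 libraries in 10 groups, which share the estimate of the spread. The response is stimulated minus resting, a difference is 1 response minus another, and p-values were adjusted by Benjamini-Hochberg over all genes tested. Changes over 2-fold used edgeR's test against a fold threshold. CPM values use the TMM-scaled library sizes as written by the fit. Alternatives were DESeq2 1.42.0 and its size factors, library totals, only the compared groups, limma 3.58.1 with a mouse correlation, a replicate block, halved even counts, no filter, and leaving out each library. Tables and figures used Python 3.11.15, pandas 2.3.3, numpy 2.4.6, scipy 1.17.1 and matplotlib 3.10.9. The fit was also run on simulated data with few genes moved and no mouse effect. That setting is unlike these data, so the run adds no support to the calls.

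Depth was 29015396 to 43922154 counts in the 6 libraries. Against a group with no reads, a fold is a lower bound from a floor of 3 reads over the group. Ratios to a few reads have exact 95% intervals. Both take 2 counts as a read in every library, also in resting 25HC mouse 3, where 46.13% of counts were odd. Bounds and intervals cover counting error only.

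The labels give same-numbered libraries the same mouse, so the numbers pair the samples. Apart from the replicate block and limma alternatives, the fits held no mouse term, so their p-values leave that pairing out. Deviations of same-mouse libraries correlated over 0.1 in 0 of 3 pairs of 25HC libraries and in 9 of 18 pairs over the 4 groups, and 11 of 12 libraries correlated best with one of their own mouse. The correlation estimated by limma was 0.0968.

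The 34 gene lists, 10 marker lists and 80 single genes were chosen with earlier results of these data known, and 3 list genes are not in the table. Named genes follow a rule. For the response it takes the 12 largest and 12 smallest changes past the threshold, with an absolute log2 change of 1 or more, a mean level of 3 log2 CPM or more and groups that do not overlap (log2(CPM + 0.1) for differences by mouse), leaving out predicted genes. For the difference from untreated cells it takes 10 each way with a mean level of 2 or more, and for each compound 5 each way. From each list it takes up to 4 members by p for the response, up to 3 for the difference, and members called against the list's direction, besides the single genes. Some genes that the rule or the lists take are not reported here by name, though they stay in the fits and counts.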

Additional observations from a re-analysis of the deposited data

Results flagged for a closer look

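The results listed here differ between pretreatments by a test of the difference itself, the interaction of pretreatment and LPS in edgeR's quasi-likelihood fit at a Benjamini-Hochberg adjusted p under 0.05. Values in brackets are the log2 response with 25HC minus the log2 response of the other cells.

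Against untreated cells 704 genes had a higher and 916 a lower response. Among those taken by the rule for named genes, the higher ones were Cxcl1 (4.61), Il1b (4.39), Il1a (4.23), Thbs1 (4.15), Id3 (3.75), Samd4 (3.70), Ahr (3.34), Cish (3.28), Irf4 (3.26) and Ms4a4a (3.06). The lower ones reported were Il18rap (-4.03), Exo1 (-3.71), Shcbp1 (-3.50), Cx3cr1 (-3.44), Cd244a (-3.19), Pald1 (-3.09), Sirpb1c (-2.98), Pcp4l1 (-2.96) and Sirpb1a (-2.88). The rule takes only genes whose responses by mouse, on log2(CPM + 0.1), do not overlap. The same sign in 3 of 3 mice is therefore a condition of this choice and adds no support. For Shcbp1 the sign in mouse 2 depends on that constant, since it was near 0 reads after LPS. Cxcl1, Il1a, Ms4a4a and Exo1 lost their call without single libraries named in the report.

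Against itraconazole-pretreated cells 116 genes were higher and 246 lower. The higher ones taken by the rule were Il4i1 (2.99), Tspoap1 (2.56), Psrc1 (2.01), Cenpa (1.91) and Dusp2 (1.67), and the lower ones were Shcbp1 (-3.25), Tsr1 (-1.37), Trmt61a (-1.34), Gadd45a (-1.27) and Smyd5 (-1.24). Of these 10, Tspoap1, Tsr1 and Smyd5 kept their call without each library in turn.

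Against OSW-1-pretreated cells 3087 genes were higher and 2697 lower. The higher ones taken by the rule were Tgfbi (8.96), Zfyve28 (7.27), Nxpe5 (6.34), Ly6a (6.23) and Gatm (6.07), and the lower ones were Scube3 (-11.60), Cx3cl1 (-6.52), Serpinb2 (-6.30), Adamts4 (-5.58) and Ccl22 (-5.20). Scube3 was at or near 0 reads in the 25HC libraries, so its value depends on the prior count of the fit and is no measure of size.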

How the results depend on the processing

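Between alternatives, the genes higher after LPS numbered 2404 to 4176 and those lower 4050 to 6572, and without single libraries 3685 to 3941 and 3983 to 4264. The split moved under library totals, to 2404 higher and 6572 lower, because that scaling shifts the median of all genes from -0.037 to -0.355. Changes over 2-fold numbered 940 to 1081 higher and 1183 to 1361 lower without single libraries. Differences from untreated cells numbered 431 higher and 472 lower with only the compared groups in the fit, against 704 and 916, and 410 to 909 higher and 479 to 1167 lower without single libraries. They were 879 and 1208 with the mouse as a replicate block. Without resting 25HC mouse 3, whose counts are not all even, they were 701 and 1015, and the response had 3815 higher and 4154 lower genes.

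Differences from itraconazole cells moved the most, from 116 higher and 246 lower to 349 and 374 with DESeq2, 69 and 80 with only the compared groups, and 210 and 434 with limma, and to 36 to 328 higher and 96 to 426 lower without single libraries. With the mouse as a replicate block the higher genes numbered 244, and the block moved no other of these counts by over 1.5 times. Differences from OSW-1 cells numbered 2743 to 3065 higher and 2378 to 2705 lower without single libraries. By library totals they were 2391 and 3731. The cause of these moves was not tested, apart from the shift named above.

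Of the genes named, 2 changed direction in the response by library totals, Dnajc3 at -0.31 (adjusted p = 0.0256) and Kdelr2 at -0.20 (adjusted p = 0.0494). A setting that gives DESeq2 or limma results against a 2-fold change was not run.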
